A study of Homo sapiens with 16 samples.

Results

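Genes of the Notch pathway were followed by RNA-seq in MCF10A cells, a single immortalized and non-tumorigenic human breast epithelial cell line. The 10 genes, taken from the 26475 genes of the count table by their symbols, were the receptors *NOTCH1*, *NOTCH2* and *NOTCH3*, the ligands *JAG1*, *JAG2* and *DLL1*, and the target genes *HES1*, *HES4*, *HEY1* and *NRARP*. The set was chosen by measured values, since *NOTCH1* was among the genes that were lowest with collagen against control in these same libraries. There were 16 libraries in 4 groups of 4. Control cells received DMSO, with changes of normal media in place of collagen. The other groups received collagen (0.05 mg/mL, with NaOH added to make it polymerize) for 24 h, with DMSO in the collagen group, with DDR1-IN-1 (DDR1i, 2 µM) in the DDR1i group or with AI-10-104 (RUNXi, 5 µM) in the RUNXi group. The inhibitors were present for 48 h. DDR1i inhibits the collagen receptor kinase DDR1, and RUNXi blocks the binding of RUNX transcription factors to their partner CBFβ. The control group had neither collagen nor NaOH, so that these cannot be told apart. The study asked whether DDR1 and RUNX1 control similar sets of genes.

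Notch receptors are cell surface proteins that are activated by ligands on neighbouring cells. Ligand binding exposes the receptor to cleavage by ADAM10 and then by γ-secretase, which releases an intracellular domain. This domain enters the nucleus, binds the DNA-binding protein RBPJ with a Mastermind coactivator and turns on targets such as the HES and HEY repressor genes and *NRARP*, a feedback inhibitor of the pathway. In the absence of the intracellular domain, RBPJ recruits corepressors such as SPEN. In the breast epithelium, Notch signalling is known for its part in the choice between luminal and basal fates.

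The stretches of promoter sequence below show what the target genes and the receptors carry just before their start sites. They are from RefSeq (GRCh38.p14) and are written 5′ to 3′ on the strand of the gene. In the targets *HES1* (chr3:194136048-194136127, plus strand) and *HES4* (chr1:1000118-1000197, minus strand), capitals mark TGGGAA, the core of the sequence that RBPJ binds:
HES1: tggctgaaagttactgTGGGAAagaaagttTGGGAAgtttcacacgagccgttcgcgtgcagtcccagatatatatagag
HES4: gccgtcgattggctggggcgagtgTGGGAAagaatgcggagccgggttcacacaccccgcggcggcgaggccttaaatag
In the receptors *NOTCH1* (chr9:136546049-136546148, minus strand) and *NOTCH2* (chr1:120069663-120069762, minus strand), capitals mark GGGCGG, the GC box:
NOTCH1: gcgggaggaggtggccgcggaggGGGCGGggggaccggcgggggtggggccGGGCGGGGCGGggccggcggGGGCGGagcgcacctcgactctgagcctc
NOTCH2: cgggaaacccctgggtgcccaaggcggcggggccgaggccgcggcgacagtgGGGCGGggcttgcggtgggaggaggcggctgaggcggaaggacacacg

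Promoter windows of 300 bases (250 before to 50 after the start) were searched on both strands for 8 of the 10 members. TGGGAA was found in *HES1* (2 matches) and *HES4* (1 match) and in 24.0% of all 35116 promoters. The longer form GTGGGAA, which contains TGGGAA, was found in the same 2 members (1 match each) and in 6.25% of all promoters. GGGCGG was found in 7 of the 8 members and in 44.95% of all promoters. The share of G and C in these windows ran from 59.0% (*HES1*, the member without a match) to 79.7% (*JAG2*). The share of matches in other promoters of like G and C content was not determined. TGTGGT, a core of RUNX binding sites, was found in 0 of the 8 members and in 13.1% of all promoters. These are matches of exact letters, other forms of the sites were not searched, and no binding was measured.

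Total counts per library ranged from 12184619 to 44332378, and the lowest was control replicate 2. Keratins and other markers of basal epithelium (*KRT5*, *KRT14*, *KRT17*, *TP63* and *ITGB4*, 5 of 5) had 47.3 normalized CPM (counts scaled to library size) or more in every library. The leukocyte markers *PTPRC* and *CD3E*, the endothelial marker *CDH5*, the fibroblast marker *PDGFRA* and the luminal markers *PGR*, *ELF5* and *KIT* had 0 to 2 counts in all 16 libraries together. *CD68* (8.53 to 28.7 CPM), the luminal marker *FOXA1* (2.40 to 11.2 CPM) and the fibroblast marker *DCN* (1.39 to 30.1 CPM) were present in every library. The epithelial markers *EPCAM*, *CDH1*, *KRT8* and *KRT18* (4 of 4) had 20.3 CPM or more in every library, *COL1A1* had 0 to 6.35 CPM, and *COL1A2*, *LUM*, *ESR1*, *PECAM1*, *VWF* and *KDR* had 2.40 CPM or less. The authors had removed collagen replicate 3 as an outlier, and it is left out of every fit below unless stated. Levels between genes and likeness to *NOTCH1* were computed over all 16 libraries. The labels do not say that replicates were separate cultures, so that p-values measure only the spread between these samples. In bulk RNA, fewer cells that express a gene and less RNA per cell cannot be told apart.

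The members fell into abundant and scarce genes. Levels were compared between genes as normalized CPM per kb of the canonical transcript, as mean ± SD over the 16 libraries. *HES1*, the best known Notch target and a transcriptional repressor, was highest at 38.5 ± 18.5 CPM per kb. It was followed by the ligands *JAG1* (16.5 ± 3.39 CPM per kb) and *JAG2* (16.01 ± 2.58), the target *HES4* (13.2 ± 3.74) and the receptors *NOTCH2* (9.87 ± 2.17) and *NOTCH1* (8.77 ± 2.41). *NRARP* (1.08 ± 0.47 CPM per kb), *HEY1* (0.74 ± 0.66), *DLL1* (0.62 ± 0.40) and *NOTCH3* (0.32 ± 0.18) were scarce. The ranges of neighbours in this order overlapped at each step but that from *NOTCH1* (lowest library 4.03 CPM per kb) to *NRARP* (highest library 2.13 CPM per kb). The scarce members rest on few reads. *HEY1* was at 0 in 2 libraries, where the limit that a count of 0 allows was 0.186 CPM in control replicate 3 and 0.193 CPM in RUNXi replicate 3. *DLL1* was at 0 in control replicate 2, where that limit was 0.246 CPM.

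**Figure D1:**
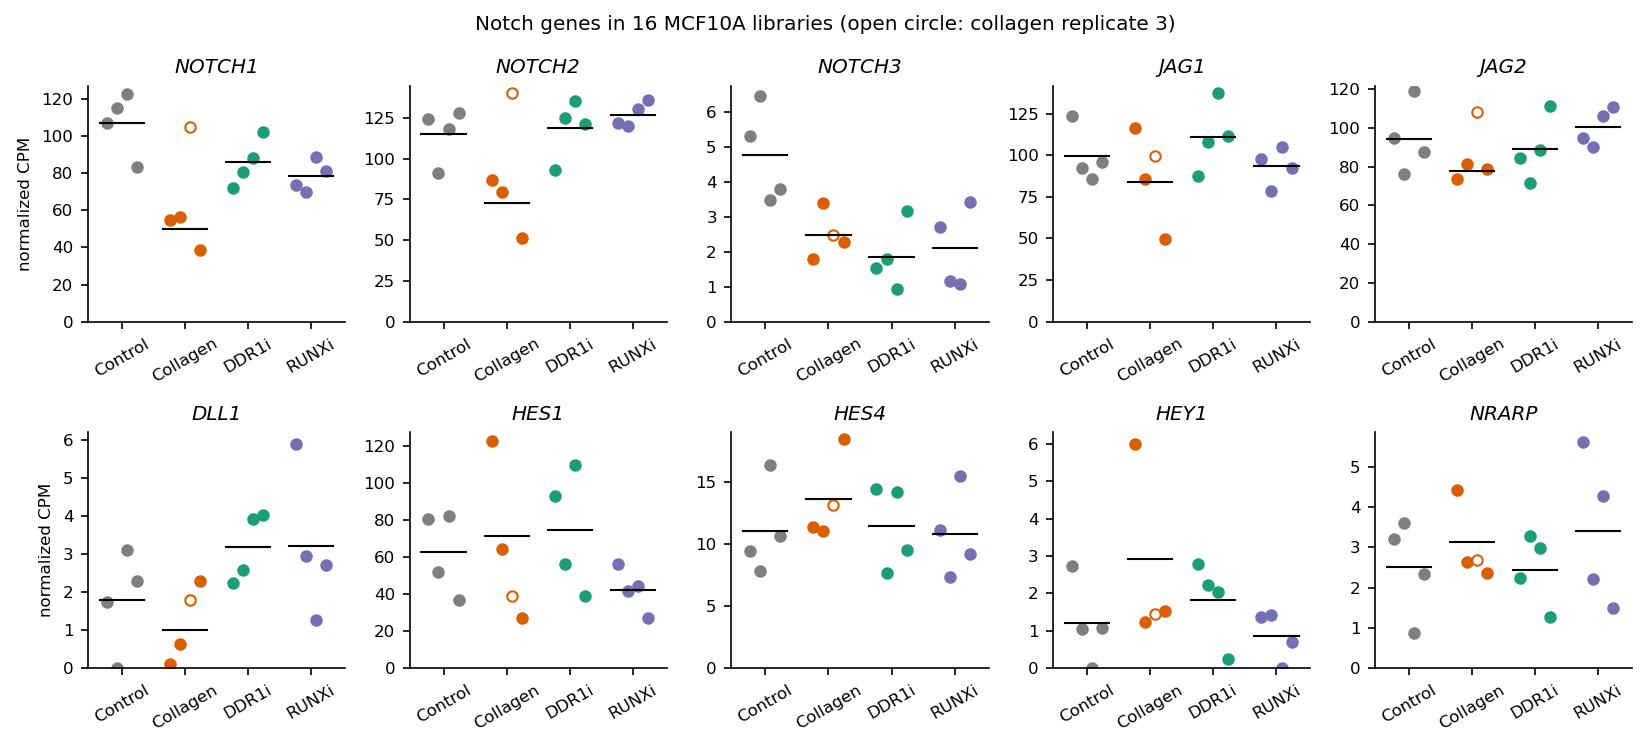
Normalized CPM (linear axes starting at 0) of the 10 Notch genes, 1 point per library and a line at the mean of each group without collagen replicate 3, which is drawn as an open circle. For *NOTCH1* and *NOTCH2* collagen replicates 1, 2 and 4 lay below every other library. Collagen replicate 3 lay among the libraries of the other groups for *NOTCH1* and above all of them for *NOTCH2*.

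Collagen against control was the comparison from which *NOTCH1* was picked, so that its values are a description with no test. *NOTCH1* (chr9:139388885-139440500, GRCh37, minus strand) had 107, 115, 123 and 83.3 CPM in control replicates 1 to 4. In the collagen group it had 55.1, 56.5 and 38.5 CPM in replicates 1, 2 and 4. Collagen replicate 3, at 105 CPM, was near the controls. The log2 fold change without that library was -1.09 ± 0.18 (SE), the first of 13092 genes in order of p. No gene passed the adjusted threshold of 0.05 in that comparison with edgeR, while 1754 genes had an unadjusted p under 0.05 and DESeq2 called 399.

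*NOTCH2*, the other abundant receptor (chr1:120454176-120643366, GRCh37, minus strand), had 124, 91.0, 118 and 128 CPM in the control libraries. In collagen replicates 1, 2 and 4 it had 87.0, 79.3 and 51.5 CPM. Collagen replicate 3 had the highest value of all 16 libraries, at 140.2 CPM. *NOTCH3*, a receptor that is better known from vascular smooth muscle, had 5.31, 6.47, 3.49 and 3.79 CPM in the control libraries and 1.80, 3.40, 2.48 and 2.29 CPM in collagen replicates 1 to 4. The 3 collagen libraries thus lay below every control library for 3 of the 10 members, all of them receptors, against 7.17% of the 13092 genes tested. Nothing is read from that count, since the comparison chose *NOTCH1*. Log2 fold changes were -0.66 ± 0.19 (SE) for *NOTCH2*, -0.92 ± 0.56 for *NOTCH3*, -0.24 ± 0.22 for *JAG1*, -0.27 ± 0.16 for *JAG2* and -0.81 ± 1.32 for *DLL1*. The target genes had positive values, 0.19 ± 0.49 for *HES1* (-0.45 to 0.58 with 1 library left out), 0.31 ± 0.32 for *HES4*, 1.25 ± 1.13 for *HEY1* and 0.33 ± 0.72 for *NRARP*, with errors near or above the values.

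With either inhibitor added to collagen, *NOTCH2* was higher than with collagen alone. It had 93.4, 125, 135 and 121.5 CPM in DDR1i replicates 1 to 4 and 122, 120.0, 130.5 and 136 CPM in RUNXi replicates 1 to 4. All 8 inhibitor libraries lay above collagen replicates 1, 2 and 4 and below collagen replicate 3. *NOTCH2* rose 1.64-fold with DDR1i (log2 fold change 0.71 ± 0.16 SE, adjusted p = 0.0165) and 1.74-fold with RUNXi (0.80 ± 0.16 SE, adjusted p = 0.00733) by the quasi-likelihood test of edgeR, adjusted after Benjamini and Hochberg. It was the 1 gene called among the 9 members other than *NOTCH1* in each comparison, where 2.47% of all 13548 genes tested were called with DDR1i and 4.05% with RUNXi. DESeq2 also called 1 of the 9 with each inhibitor. Of the genes tested by both tools, it called 8.26% with DDR1i and 10.9% with RUNXi. Both comparisons share the same 3 collagen libraries and are not independent of each other. These libraries also took part in the choice of *NOTCH1*, and *NOTCH2* varied with *NOTCH1* over the 16 libraries (Pearson r = 0.733). The calls of *NOTCH2* are thus not independent of how the set was chosen.

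The call of *NOTCH2* depended on which collagen libraries were used. With collagen replicate 3 included, its log2 fold change was 0.40 with DDR1i (adjusted p = 0.597, same edgeR test) and 0.49 with RUNXi (adjusted p = 0.337). Without collagen replicate 4, it was 0.52 with DDR1i (adjusted p = 0.0764) and 0.61 with RUNXi (adjusted p = 0.0286). The call with DDR1i was also lost without DDR1i replicate 3 (adjusted p = 0.0812) or replicate 4 (adjusted p = 0.0502), and that with RUNXi held in 11 of 11 fits that left out 1 library.

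*NOTCH2* has a partial and near-identical copy, *NOTCH2NL*, with which reads may be shared, so that the count of each is uncertain (the copy was named after its values were seen). *NOTCH2NL* had 27.8, 19.6 and 17.0 CPM in collagen replicates 1, 2 and 4 and 12.5 CPM in collagen replicate 3. It had 8.39 to 16.1 CPM in the control libraries, 11.7 to 20.2 CPM with DDR1i and 14.9 to 20.2 CPM with RUNXi. The ratio of *NOTCH2* to *NOTCH2NL* counts was 3.03 to 4.04 in collagen replicates 1, 2 and 4, and 5.17 to 11.2 in the other 13 libraries. With the counts of both genes summed, an alternative chosen after seeing the data, the log2 fold change was 0.52 with DDR1i (adjusted p = 0.0561, same edgeR test) and 0.61 with RUNXi (adjusted p = 0.024).

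*NOTCH1* lay above collagen replicates 1, 2 and 4 in all 8 inhibitor libraries as well. It had 72.2, 80.8, 88.4 and 102 CPM in DDR1i replicates 1 to 4 and 73.6, 70.1, 88.9 and 81.3 CPM in RUNXi replicates 1 to 4. Log2 fold changes were 0.78 ± 0.16 (SE) with DDR1i and 0.64 ± 0.15 with RUNXi, with no test, since these collagen libraries took part in the choice of the gene. With collagen replicate 3 included the values were 0.42 and 0.28. The log2 fold change of *NOTCH3* against collagen was -0.43 ± 0.67 (SE) with DDR1i and -0.25 ± 0.67 with RUNXi, and its ranges overlapped in both comparisons. The 95% intervals, -1.75 to 0.88 and -1.56 to 1.06, contain the values of *NOTCH1* and *NOTCH2*, and no difference between receptors was tested.

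**Figure D2:**
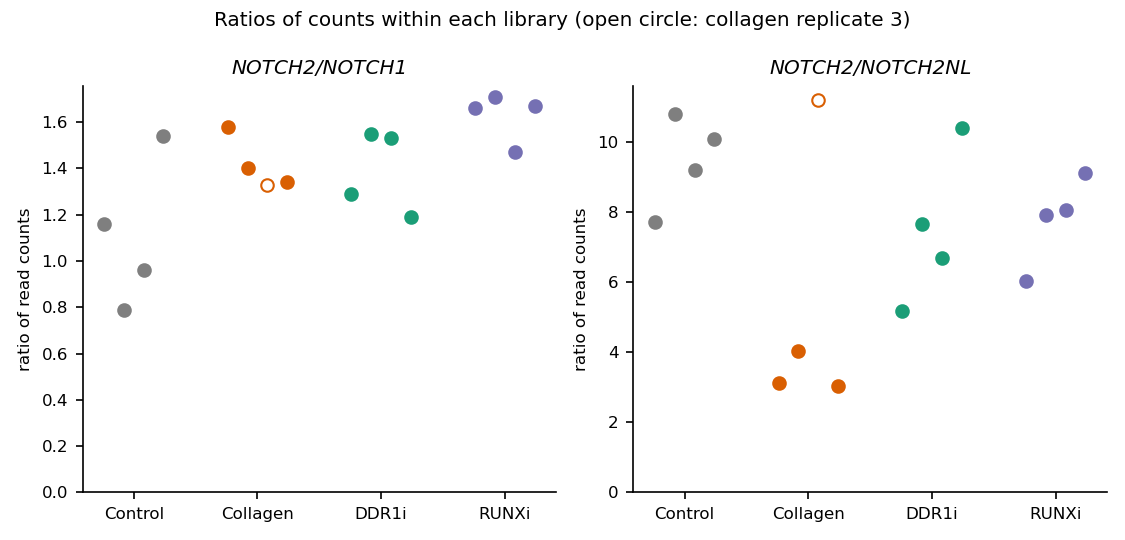
Ratios of read counts within each library (linear axes starting at 0), 1 point per library, for *NOTCH2* to *NOTCH1* and for *NOTCH2* to *NOTCH2NL*. The ratio to *NOTCH2NL* was at most 4.04 in collagen replicates 1, 2 and 4 (filled circles of the collagen group) and at least 5.17 in every other library.

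The abundant ligands, both of the Jagged family, had smaller fold changes than *NOTCH1* and *NOTCH2*, and neither passed the test. *JAG1* had 116, 85.7 and 49.7 CPM in collagen replicates 1, 2 and 4 (99.4 CPM in replicate 3). It had 87.6, 108, 137 and 112 CPM with DDR1i and 97.8, 78.8, 105 and 92.6 CPM with RUNXi. The collagen libraries thus spanned most of the range of the inhibitor libraries, and log2 fold changes were 0.41 ± 0.21 (SE) with DDR1i (adjusted p = 0.339, same edgeR test) and 0.15 ± 0.21 with RUNXi (adjusted p = 0.753). Without collagen replicate 1 the value with DDR1i was 0.70 and passed (adjusted p = 0.0463, same edgeR test), and without collagen replicate 4 it was 0.14 (adjusted p = 0.795).

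*JAG2* had 73.8, 81.5 and 78.6 CPM in collagen replicates 1, 2 and 4 (108 CPM in replicate 3) and 94.96, 90.2, 106 and 111 CPM with RUNXi. The RUNXi libraries lay above those 3 collagen libraries, with a log2 fold change of 0.36 ± 0.14 (SE) that did not pass the test (adjusted p = 0.135). With DDR1i *JAG2* had 84.6, 71.4, 88.5 and 111.5 CPM, which overlapped the collagen libraries (0.19 ± 0.14, adjusted p = 0.541).

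*DLL1*, a ligand of the Delta family, had 2, 17 and 57 counts (0.112, 0.642 and 2.29 CPM) in collagen replicates 1, 2 and 4 and 49 counts in replicate 3. It had 53 to 88 counts with DDR1i (2.25, 2.59, 3.92 and 4.04 CPM) and 20 to 144 counts with RUNXi (5.91, 2.95, 1.27 and 2.71 CPM). Its log2 fold changes, 1.63 ± 0.73 (SE) with DDR1i and 1.64 ± 0.73 with RUNXi, were larger than those of the receptors, with unadjusted p-values of 0.0339 and 0.0327 that did not hold after adjustment in the fit across all genes by edgeR (adjusted p = 0.228 and 0.192). The collagen libraries disagreed with each other, and the log2 fold change ranged from 1.10 to 3.01 with DDR1i when each library was left out in turn.

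None of the 4 target genes passed the test with either inhibitor against collagen. *HES1* varied widely between replicates. It had 122.5, 64.2 and 26.9 CPM in collagen replicates 1, 2 and 4, and 38.7 CPM in replicate 3. It had 92.9, 56.0, 109.8 and 39.1 CPM with DDR1i and 56.0, 41.8, 44.3 and 27.2 CPM with RUNXi. Replicate 4 was the lowest library in each of the 4 groups, control included (80.6, 52.1, 82.2 and 36.6 CPM). Log2 fold changes against collagen were 0.07 ± 0.53 (SE) with DDR1i and -0.75 ± 0.53 with RUNXi (adjusted p = 0.976 and 0.475, same edgeR test). Without a filter on low counts the same edgeR test called *HES1* with RUNXi against collagen (adjusted p = 9.9e-05) and between the inhibitors (adjusted p = 2.93e-06).

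*HES4*, a repressor of the same family, had 11.4, 11.03 and 18.4 CPM in collagen replicates 1, 2 and 4 (13.1 CPM in replicate 3). Log2 fold changes were -0.25 ± 0.29 (SE) with DDR1i and -0.35 ± 0.29 with RUNXi (adjusted p = 0.726 and 0.524). *HEY1*, a related repressor, had 6.01 CPM in collagen replicate 1 and 1.25 to 1.52 CPM in the other 3 collagen libraries. Its log2 fold changes of -0.66 ± 0.93 with DDR1i and -1.73 ± 0.94 with RUNXi (adjusted p = 0.79 and 0.297) rest largely on that library, since the value with DDR1i was 0.40 and that with RUNXi -0.69 without it. *NRARP* had 2.37 to 4.43 CPM in the 4 collagen libraries, 1.26 to 3.29 CPM with DDR1i and 1.49 to 5.62 CPM with RUNXi, and its log2 fold changes were -0.36 ± 0.55 and 0.10 ± 0.55 (adjusted p = 0.814 and 0.945).

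**Figure D3:**
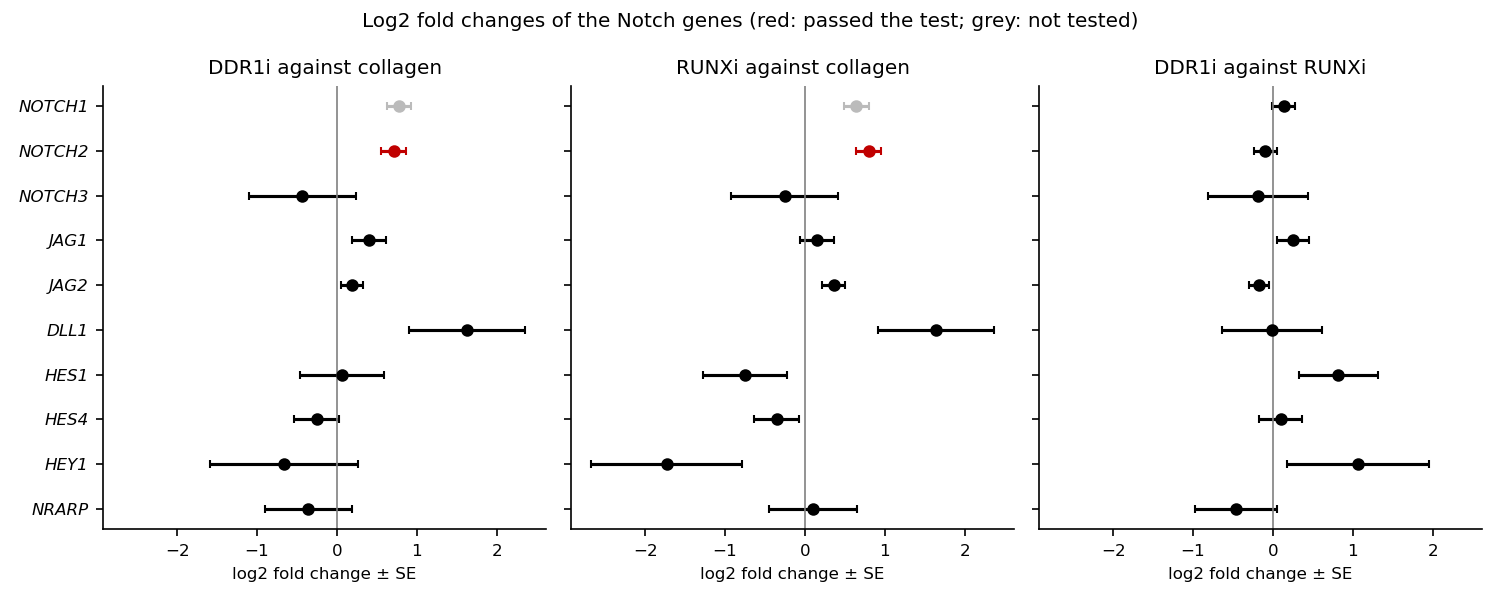
Log2 fold changes of the 10 Notch genes with their standard errors (bars) from the fit of 11 libraries, for each inhibitor against collagen and for DDR1i against RUNXi. Among the tested members, *NOTCH2* (red) passed the test against collagen with both inhibitors, and none passed between the inhibitors. *NOTCH1* (grey) was not tested against collagen.

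Long and short transcripts had medians of opposite sign in the comparisons with collagen. The canonical transcripts of *NOTCH1* (9568 bases) and *NOTCH2* (11425 bases) are long, and those of *HES4* (885 bases), *HES1* (1575 bases) and *HEY1* (2197 bases) are short. Among 1078 tested genes with transcripts of 8 kb or longer, the median log2 fold change was 0.33 with DDR1i and 0.34 with RUNXi. Among 5496 genes under 3 kb, the medians were -0.14 and -0.16. The long group had a median of -0.35 with collagen against control, and 0.01 with DDR1i against RUNXi. *NOTCH3* (8680 bases), also long, had log2 fold changes against collagen of -0.43 ± 0.67 (SE) with DDR1i and -0.25 ± 0.67 with RUNXi. Its intervals, -1.75 to 0.88 and -1.56 to 1.06, contain the medians of the long group. Whether *NOTCH3* departs from the trend with length was not tested.

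After the trend with length was removed from each library, *NOTCH2* had a log2 fold change of 0.35 with DDR1i (adjusted p = 0.179, same edgeR test) and 0.50 with RUNXi (adjusted p = 0.0439). *NOTCH1* then had 0.46 and 0.36, and -0.87 with collagen against control.

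**Figure D4:**
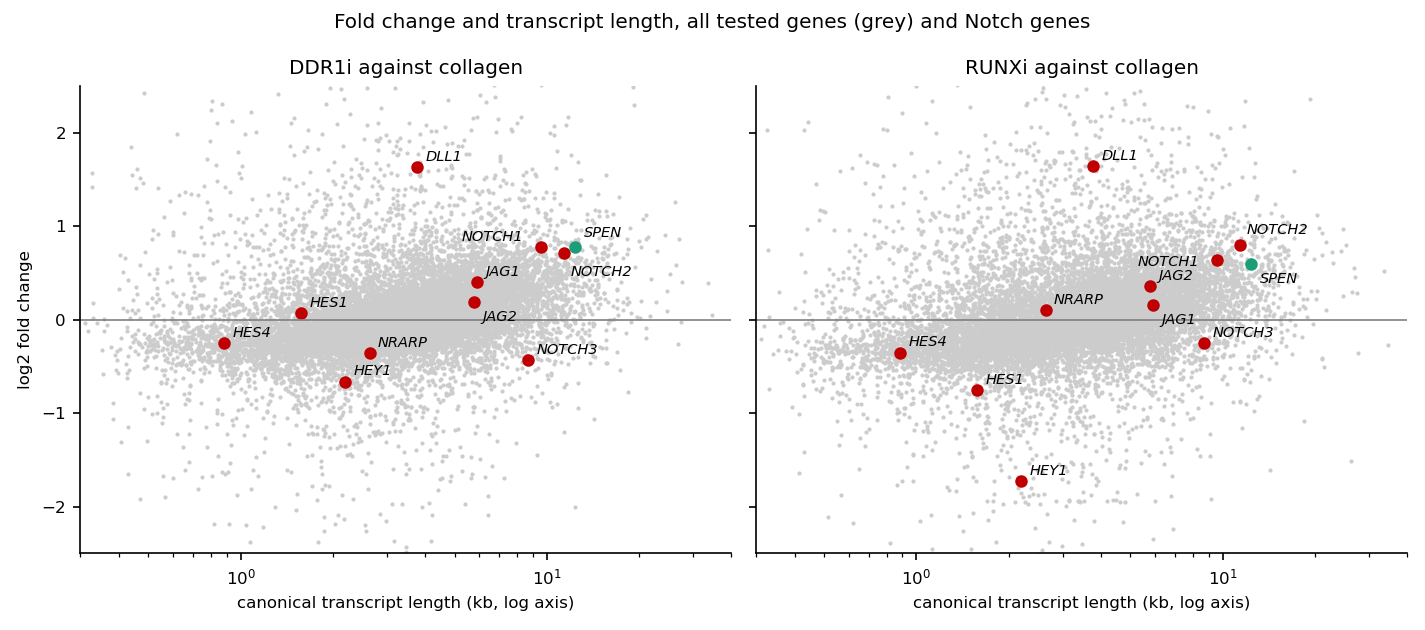
Log2 fold change against collagen plotted over canonical transcript length (kb, log axis) for tested genes with a known length (grey), the 10 Notch genes (red) and *SPEN* (green). Genes with changes beyond the axis are not drawn. The grey cloud leans upwards with length. *NOTCH1* and *NOTCH2* lie above its median for long transcripts (0.33 with DDR1i and 0.34 with RUNXi). *NOTCH3* lies below, with intervals (-1.75 to 0.88 with DDR1i and -1.56 to 1.06 with RUNXi) that contain these medians.

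The inhibitors were compared with each other at the doses used, 2 µM for DDR1i and 5 µM for RUNXi, which differ. The difference is between libraries that took no part in the choice of *NOTCH1*, although collagen replicates 1, 2 and 4 entered the estimate of the spread. None of the 9 other members was called by that edgeR test (0 at an unadjusted p under 0.05, and 0 with DESeq2), against 0.568% of all genes (6.19% at an unadjusted p). DESeq2 called 1.10% of the genes tested by both tools. The log2 difference of DDR1i minus RUNXi was 0.13 for *NOTCH1* (95% interval -0.14 to 0.41, adjusted p = 0.999) and -0.09 for *NOTCH2* (-0.37 to 0.19, adjusted p = 0.999). When only the 8 libraries with an inhibitor were fitted, an alternative chosen after seeing the data, 0 of the 9 were called by edgeR (1 at an unadjusted p under 0.05, *HES1*, adjusted p = 0.598) and the values were 0.13 for *NOTCH1* (adjusted p = 0.939) and -0.09 for *NOTCH2* (adjusted p = 0.968). In the first fit the difference was 0.25 for *JAG1* (-0.13 to 0.64) and -0.17 for *JAG2* (-0.43 to 0.08). The intervals of the scarce or variable genes were wide and do not show that the inhibitors act alike. They reached from -0.15 to 1.79 for *HES1*, from -0.67 to 2.80 for *HEY1*, from -1.25 to 1.23 for *DLL1*, from -1.41 to 1.04 for *NOTCH3* and from -1.46 to 0.54 for *NRARP*.

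Within a library, a ratio of counts does not depend on scaling. The ratio of *JAG1* to *JAG2* counts was 1.28 ± 0.297 (SD of 4 libraries) for DDR1i against 0.932 ± 0.0923 for RUNXi. All DDR1i libraries but the lowest (1.00) were above the highest RUNXi value (1.03). The ratio of *NOTCH2* to *NOTCH1* was 1.39 ± 0.178 for DDR1i against 1.63 ± 0.109 for RUNXi. Neither difference passed a two-sided exact permutation test (p = 0.0571 and 0.0857, both 0.0857 after Benjamini-Hochberg adjustment over 2 ratios, where the smallest p possible is 0.0286). These ratios were chosen after values of the genes were seen.

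Against control, which had no collagen, 0 of the 9 members were called with DDR1i (1 at an unadjusted p under 0.05, 0 with DESeq2) and 0 with RUNXi (0 at an unadjusted p under 0.05, 0 with DESeq2) by edgeR, and 0.212% and 0.401% of all 13213 genes were called (5.13% and 6.81% at an unadjusted p). DESeq2 called 0.620% and 0.787% of the genes tested by both tools. *NOTCH2* was close to control with both inhibitors, with log2 fold changes of 0.05 (95% interval -0.20 to 0.30) and 0.14 (-0.11 to 0.39). *NOTCH1* was at -0.31 ± 0.14 (SE) with DDR1i and -0.45 ± 0.14 with RUNXi, with no test, since the control libraries took part in its choice. *HES1* was at 0.25 ± 0.35 and -0.57 ± 0.35.

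*NOTCH3* had the largest fold change from control among the members, with each inhibitor. It had 1.53, 1.80, 0.934 and 3.15 CPM with DDR1i and 2.71, 1.15, 1.08 and 3.44 CPM with RUNXi, from 17 to 90 counts per library. All 12 libraries with collagen, with or without an inhibitor, lay below the lowest control library (3.49 CPM), as was so for 1 of the 10 members and for 0.0962% of 13518 genes, a count made after its values were seen. Log2 fold changes against control were -1.36 ± 0.60 (SE) with DDR1i (unadjusted p = 0.0334, adjusted p = 0.912) and -1.18 ± 0.59 with RUNXi (adjusted p = 0.752) in the same edgeR test, so that neither passed.

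The rest of the pathway was covered by 73 further genes, of which 64 were tested in the fit with collagen. *SPEN* (chr1:16162590-16266951, GRCh37, plus strand), a large corepressor of RBPJ, was the 1 gene of the 64 that passed the test with DDR1i and the 1 gene that passed with RUNXi, where 2.47% and 4.05% of all genes passed. It had 55.5, 59.8 and 54.4 CPM in collagen replicates 1, 2 and 4 and 107 CPM in replicate 3. It had 77.8, 95.7, 102 and 112.5 CPM with DDR1i, 74.3, 75.6, 83.8 and 108 CPM with RUNXi and 81.5 to 111 CPM in control. *SPEN* rose 1.71-fold with DDR1i (log2 fold change 0.78 ± 0.15 SE, adjusted p = 0.00835) and 1.51-fold with RUNXi (0.59 ± 0.15 SE, adjusted p = 0.0298) in edgeR's quasi-likelihood test. Both calls were lost with collagen replicate 3 included (log2 fold change 0.48 with DDR1i, adjusted p = 0.495, and 0.29 with RUNXi, adjusted p = 0.539). Collagen replicates 1, 2 and 4, on which the calls rest, also took part in the choice of *NOTCH1*. The transcript of *SPEN* is long (12385 bases), and both calls were also lost with the length trend removed (0.38, adjusted p = 0.169, and 0.25, adjusted p = 0.4, same edgeR test). Of 11 fits that left out 1 library, the call held in 11 with DDR1i and in 6 with RUNXi. It was lost with RUNXi without collagen replicate 1, 2 or 4 or RUNXi replicate 3 or 4 (0.45 to 0.61, adjusted p = 0.0512 to 0.103).

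The step from receptor to nucleus was described by 3 genes, named after their values were seen. Log2 fold changes against collagen were 0.06 ± 0.17 (SE) with DDR1i and -0.09 ± 0.17 with RUNXi for *ADAM10*, which makes the first cut in the receptor. They were -0.15 ± 0.15 and 0.05 ± 0.15 for *RBPJ*, and 0.48 ± 0.16 and 0.42 ± 0.16 for the coactivator *MAML1* (adjusted p = 0.0897 and 0.116, same edgeR test). None of the 3 passed the test. With collagen replicate 3 included the values of *MAML1* were 0.28 and 0.21.

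By role, the list of the nuclear complex and its corepressors had 24 of 24 genes tested, with 1 higher, 0 lower and a median log2 fold change of 0.19 with DDR1i and 1 higher, 0 lower and a median of 0.07 with RUNXi. The medians over all genes were 0.00 and 0.01. Glycosylation and receptor cleavage (14 of 14 tested) had medians of 0.12 and 0.11, and endocytosis and ubiquitin ligases (18 of 20 tested) had medians of 0.16 and 0.13. Other receptors and ligands (3 of 6 tested) had 0.14 and 0.42, and other targets (5 of 9 tested) had -0.20 and -0.15. None of the genes of these 4 lists was called by edgeR with either inhibitor. An unadjusted p under 0.05 was found for 16 of the 64 genes with DDR1i (12 higher) and 17 with RUNXi (13 higher), against 18.0% and 21.1% of all 13548 genes. DESeq2 called 4 and 5 of the list, against 8.26% and 10.9% of the genes tested by both tools. With collagen replicate 3 included, edgeR called 0 of 63 genes of the list with either inhibitor (4 with DDR1i and 8 with RUNXi at an unadjusted p under 0.05), and 0.0674% and 0.449% of all genes.

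Between the inhibitors 0 of 64 of these genes were called by edgeR (8 at an unadjusted p under 0.05), against 0.568% of all genes (6.19%). Against control 0 of 63 were called with DDR1i (4 at an unadjusted p under 0.05), against 0.212% of all genes (5.13%). With RUNXi against control 0 of 63 were called (8 at an unadjusted p under 0.05), against 0.401% (6.81%). DESeq2 called 0 in each of these 3 comparisons, against 1.10%, 0.620% and 0.787% of the genes tested by both tools. Of the 9 genes that were not tested in the fit with collagen, 4 that were chosen after their values were seen show how few reads these had. *NOTCH4* had 24 counts, *DLL4* 25, *HES5* 4 and *HEYL* 0 in all 16 libraries together.

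The RNA levels of the proteins that the inhibitors act on did not pass the test. *RUNX1* had log2 fold changes of 0.31 ± 0.15 (SE) with DDR1i and 0.30 ± 0.15 with RUNXi against collagen (adjusted p = 0.279 and 0.26), *CBFB* -0.15 ± 0.13 and -0.20 ± 0.13 (adjusted p = 0.617 and 0.416) and *DDR1* -0.02 ± 0.13 and 0.14 ± 0.13 (adjusted p = 0.966 and 0.579, same edgeR test). Among the markers, the basal keratin *KRT14* fell with DDR1i, by 0.90 on the log2 scale against collagen (adjusted p = 0.00123), by 0.97 against RUNXi (adjusted p = 6.76e-05) and by 0.79 against control (adjusted p = 0.000616, same edgeR test). The integrin gene *ITGB4* rose against collagen with DDR1i (0.58, adjusted p = 0.0226) and RUNXi (0.66, adjusted p = 0.0107), and the keratin *KRT18* fell by 0.46 with RUNXi (adjusted p = 0.0419, same edgeR test). The call of *KRT14* against collagen held with collagen replicate 3 included (adjusted p = 0.00768). Those of *ITGB4* (0.43, adjusted p = 0.454, and 0.51, adjusted p = 0.152) and *KRT18* (adjusted p = 0.322) did not, nor did they with the length trend removed (adjusted p = 0.188 and 0.0824 for *ITGB4*, 0.199 for *KRT18*). Their part in the values of the Notch genes was not tested.

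Across the 16 libraries, genes whose log2 CPM was among the most like that of *NOTCH1* were *POLR1A* (Pearson r = 0.925), *GBF1* (0.922), *HSPG2* (0.915) and *LAMA5* (0.898). Among the members, *NOTCH2* was most like it (r = 0.733, position 384 of 13517 genes), followed by *JAG1* (0.563), *JAG2* (0.552) and *NOTCH3* (0.328). Without collagen replicate 3 the r of *NOTCH2* was 0.716 (position 429). *HES1* (0.12) and *DLL1* (0.03) were near 0, and *HES4* (-0.23), *NRARP* (-0.25) and *HEY1* (-0.44) were negative. The points share the groups, library depth and the trend with transcript length, and the correlations are a description with no test.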

How the data were processed

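The authors aligned reads to hg19 with STAR, per the labels, and deposited raw counts per gene for 16 libraries. The counting tool, the annotation and the use of strand are not given in the sources used here, so that reads of overlapping, antisense or near-identical genes cannot be told apart. Groups and replicates were taken from the labels, doses and times from the labels and the study's methods. The tests were run with edgeR 4.0.16 in R 4.3.3. Counts were scaled by TMM, low genes were removed by filterByExpr, and robust quasi-likelihood models were fitted. P-values were adjusted over all genes tested (Benjamini-Hochberg), with a threshold of 0.05. One fit held 11 libraries (collagen without replicate 3, DDR1i, RUNXi), another 12 (control, DDR1i, RUNXi), and the last, used without a test, 7 (control, collagen). All 10 members passed the filter in each fit, and 13548, 13213 and 13092 genes were kept. Normalized CPM used TMM factors over the 16 libraries. Standard errors came from the quasi-likelihood F statistic. The 95% intervals are ± 1.96 SE and take no account of the degrees of freedom of that statistic, so that they are somewhat too narrow. Log2 CPM used a prior count of 2. Transcript lengths came from GENCODE 44 lifted to GRCh37, matched by 20676 symbols.

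DESeq2 1.42.0, its size factors, other filters, non-robust fits, a single fit of all groups, a replicate block, removal of the length trend (splines with 4 degrees of freedom) and leaving out each library were alternatives. Summing *NOTCH2* and *NOTCH2NL* and a fit of the inhibitor libraries alone were added after seeing the data. Replicates differed by more than sampling noise (chi-square per degree of freedom at least 18.7), and intervals and zero limits (3 counts) cover counting or replicate error only. The code was tested on made data. The members, the lists and the tests were chosen with earlier results of these data known. The genes named are the members, pathway genes that passed the test, the 5 genes most like *NOTCH1* (1 of which is not reported here), the markers, and *RUNX1*, *CBFB* and *DDR1*, and genes outside this rule are named as chosen after their values were seen. Figures were drawn with Python 3.11.15 and matplotlib 3.10.9.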

Additional observations from a re-analysis of the deposited data

Results flagged for a closer look

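In 2 of 40 sets of 4 replicates (10 genes in 4 groups), 1 library stood apart from the other 3 by more of the range than Dixon's 95% critical value allows, and chance flags about 1 set in 20. *HEY1* had 6.01 CPM in collagen replicate 1 and 1.25 to 1.52 CPM in the other collagen libraries (gap to range ratio 0.942). *NRARP* had 4.43 CPM in the same library and 2.37 to 2.70 CPM in the others (ratio 0.838).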

How the results depend on the processing

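A fold change of a member counts here as stable when it kept its direction and its side of the threshold or, where untested, moved by less than the SD of the reference group. This held for 492 of 512 values under alternatives that left out no library, and for 594 of 640 with 1 library left out. Most of these values were not called to begin with, so that remaining uncalled with the same sign counted as stable. These shares thus say little about the calls of *NOTCH2*. The number of members called with DDR1i against collagen (1) was 0 with the length trend removed, 0 with collagen replicate 3 included and 0 with *NOTCH2NL* summed into *NOTCH2*, 2 at an unadjusted p, and 0 to 2 with 1 library left out. With RUNXi against collagen (1) it was 2 without a filter, 0 with collagen replicate 3 included, 3 at an unadjusted p, and 1 in each fit with 1 library left out. Without a filter, 1 was called between the inhibitors, and at an unadjusted p 1 with DDR1i against control. With collagen replicate 3 included, 0.0674% of all genes were called with DDR1i and 0.449% with RUNXi. The shares without a filter, with the length trend removed, with *NOTCH2NL* summed or with 1 library left out are not given here. Counts of members in those settings thus cannot be set against all genes. The members with collagen below every control library (3) were 1 with collagen replicate 3 included and 3 to 4 with 1 library left out. Without a filter the added gene was *HES1*, whose log2 fold change stayed at -0.76 with RUNXi against collagen and 0.83 between the inhibitors, while its standard errors fell from 0.53 and 0.49 to 0.15 and 0.14. *DLL1* and *HEY1* could not be tested with at least 10 counts in every library. Apart from what a setting takes out or puts in by its construction, the cause of these changes was not tested. Where depth was low (*NOTCH3*, *DLL1*, *HEY1*, *NRARP*), errors limit what can be seen.

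With the length trend removed, the log2 fold change turned to -0.021 for *JAG2* with DDR1i and -0.013 for *JAG1* with RUNXi against collagen, and to -0.034 for *NOTCH2* and -0.15 for *HES4* with DDR1i against control. Values that changed sign with 1 library left out, none of them called, ranged against collagen from -0.32 to 0.70 (*HES1*), -0.40 to 0.034 (*HES4*) and -1.03 to 0.40 (*HEY1*) with DDR1i, and from -0.60 to 0.011 (*NOTCH3*), -0.11 to 0.44 (*JAG1*) and -0.26 to 0.41 (*NRARP*) with RUNXi. Between the inhibitors they ranged from -0.16 to 0.011 (*NOTCH2*), -0.56 to 0.17 (*NOTCH3*), -0.27 to 0.46 (*DLL1*) and -0.046 to 0.32 (*HES4*). With collagen against control they ranged from -0.54 to 0.029 (*JAG1*) and -0.45 to 0.58 (*HES1*). Against control they ranged from -0.044 to 0.14 (*NOTCH2*), -0.20 to 0.044 (*JAG2*), -0.075 to 0.30 (*HES4*) and -0.30 to 0.19 (*NRARP*) with DDR1i, and from -0.16 to 0.044 (*JAG1*), -0.26 to 0.20 (*HES4*) and -0.90 to 0.31 (*HEY1*) with RUNXi.

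With the replicate block, 2 members were called with RUNXi against collagen and 1 between the inhibitors, *HES1* being the gene added in both (log2 fold change -0.70, adjusted p = 0.0296, and 0.75, adjusted p = 0.0204, by edgeR), and *NRARP* with RUNXi against collagen turned to -0.13. The share of all genes called with the block is not given here, so that these counts cannot be set against it. The labels give each group the same replicate numbers, and deviations correlated at r over 0.1 in 6 of 6 pairs of replicate 4 (0.161 to 0.276) and in 1 of 15 pairs of replicates 1 to 3 (-0.0925 to 0.141). Of 15 libraries, 11 correlated best with one of their own number, all 4 of replicate 4 among them. Since not every pair was over 0.1, the numbers were not taken as pairs, although replicate 4 shared a deviation across groups. *HES1* was lower with RUNXi than with DDR1i in all 4 sets of the same number.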
